A study of Rattus norvegicus with 6 samples.

Results

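The subunits of oxidative phosphorylation were described as transcripts in rat renal cortex: the nuclear-encoded parts of NADH dehydrogenase (complex I), succinate dehydrogenase (complex II), the cytochrome bc1 complex (complex III), cytochrome c oxidase (complex IV) and ATP synthase (complex V). Members were chosen by symbol alone, as the Ndufa, Ndufb, Ndufc, Ndufs and Ndufv genes, Sdha to Sdhd, the Uqcr genes, Cyc1, the lettered or numbered Cox4 to Cox8 genes and the Atp5 genes, with assembly factors left out. Of 15645 gene symbols on the array, 76 were members, read by 134 of 61453 probes. They comprised 32 genes of complex I, 4 of complex II, 8 of complex III, 16 of complex IV and 16 of complex V. A further 35 protein-coding symbols that fit the rule, among them Cyc1, Cox7a1 and Atp5mc3, and the 13 subunits encoded in mitochondrial DNA were not analysed here.

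The animals were 6 male Sprague-Dawley rats of the Crl:CD(SD) stock, which is outbred, purchased when 5 weeks old and kept on a basal diet. The control group received corn oil for 4 weeks and the other group received 1,2-dibromoethane, a halogenated solvent and former fumigant, at 75 mg/kg/day for 4 weeks, with 3 rats in each group. Total RNA of each renal cortex was labelled with Cy3 and read on 1 single-colour Agilent array. The comparison asks which subunit transcripts differed between treated and control cortex.

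Oxidative phosphorylation is the last stage of respiration in the inner mitochondrial membrane. Complexes I and II take electrons from NADH and succinate, complexes III and IV pass them by way of ubiquinone and cytochrome c to oxygen, complexes I, III and IV pump protons, and complex V uses the returning protons to make ATP. The proximal tubule, the main cell type of the renal cortex, is rich in mitochondria and draws nearly all its energy for sodium and solute uptake from this pathway.

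The tissue label was checked against marker genes. All 6 proximal tubule markers (Slc34a1, Slc5a2, Lrp2, Cubn, Aqp1 and Slc22a6) were well above background on all arrays, and their summed level, in multiples of each array's 75th percentile, was 1060 to 1100 in controls and 975 to 1010 in treated rats. Between 59.2% and 67.7% of probes per array were well above background and 0 probes were saturated. Array pairs correlated at r = 0.989 to 0.993 within a group and at r = 0.988 to 0.992 between groups, across features that are not independent replicates. The number of arrays limits the precision of every difference. In whole cortex, fewer cells of a type and less RNA per cell cannot be told apart.

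Promoters are shown for 4 complex IV and complex I members to which the results return: Cox8b, the member with the largest difference, Cox8a, the other form of the same subunit that was tested, and Cox4i1 and Ndufv3, the members of complexes IV and I that were lower with the smallest unadjusted p. Each run holds the 250 bases before the annotated start, 5′ to 3′ on the gene's strand, from RefSeq on the GRCr8 assembly. Capitals mark matches to 1 of 6 motifs searched on both strands.
Cox8b, chr1:205408274-205408523, minus strand: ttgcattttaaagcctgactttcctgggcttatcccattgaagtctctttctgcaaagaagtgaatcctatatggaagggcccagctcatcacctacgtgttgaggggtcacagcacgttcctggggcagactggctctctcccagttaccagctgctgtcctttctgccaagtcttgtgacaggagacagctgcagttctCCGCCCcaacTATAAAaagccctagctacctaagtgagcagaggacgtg
Cox8a, chr1:213833624-213833873, minus strand: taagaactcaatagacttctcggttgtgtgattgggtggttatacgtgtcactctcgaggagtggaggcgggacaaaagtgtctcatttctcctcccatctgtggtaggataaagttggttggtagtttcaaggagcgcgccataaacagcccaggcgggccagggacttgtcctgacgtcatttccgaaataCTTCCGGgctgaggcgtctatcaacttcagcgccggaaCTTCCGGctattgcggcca
Cox4i1, chr19:65630133-65630382, plus strand: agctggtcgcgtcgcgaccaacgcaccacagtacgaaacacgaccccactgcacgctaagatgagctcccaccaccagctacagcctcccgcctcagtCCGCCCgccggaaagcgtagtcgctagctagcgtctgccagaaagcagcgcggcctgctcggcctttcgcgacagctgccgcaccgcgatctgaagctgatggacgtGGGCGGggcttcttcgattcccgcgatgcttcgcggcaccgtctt
Ndufv3, chr20:9613536-9613785, plus strand: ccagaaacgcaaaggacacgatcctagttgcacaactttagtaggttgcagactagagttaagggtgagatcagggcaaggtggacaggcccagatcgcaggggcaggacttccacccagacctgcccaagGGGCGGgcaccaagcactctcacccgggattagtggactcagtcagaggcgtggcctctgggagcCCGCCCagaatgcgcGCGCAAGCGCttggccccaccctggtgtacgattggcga
The capitals in the Cox8b promoter are an Sp1 box (GGGCGG, read on the other strand) and a TATA box (TATAAA) that begins 39 bases before the start. The Cox8a promoter has 2 ETS motifs (CCGGAAG, both on the other strand) and no TATA box of these letters. The Cox4i1 promoter has 2 Sp1 boxes, and the Ndufv3 promoter has 1 NRF1 motif (GCGCA and GCGC with any 1 base between them) and 2 Sp1 boxes. A match is a description of letters and not a site of binding.

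Of the 76 members, 67 had an entry in the promoter table. Of the others, Ndufa10l1, Ndufb9, Uqcr11, Uqcrb, Cox4i2, Cox6a1, Cox6c and Atp5pd are named only. The NRF1 motif, bound by the respiratory factor of that name, lay in 10 of the 67 member promoters (14.9%), beside 4.17% of all 27457 promoters of the same length. The ETS motif, the core read by GABP and related factors, lay in 19 (28.4%), beside 7.74%. The GGGCGG box lay in 24 (35.8%), beside 32.4%, and the TATAAA box in 5 (7.46%), beside 13.1%. The YY1 motif AAGATGGCG lay in 1 member promoter (1.49%), beside 0.736%, and the motif TNAAGGTCA of estrogen-related receptors in 0, beside 1% of all promoters.

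No subunit transcript passed the test. Of 75 members tested, 0 had an adjusted p under 0.05 in limma, with Benjamini-Hochberg adjustment over 28954 features; over the whole array 9 features (0.0311%) did, 7 higher (0.0242%) and 2 lower (0.00691%). Cox8c, a testis form of complex IV subunit VIII, stayed under the well-above-background limit on all 6 arrays and was left out. An unadjusted p under 0.05 was found for 4 members (5.33%), Cox8b higher and Ndufv3, Cox4i1 and Ndufb9 lower, beside 11.2% of all features, 4.52% higher and 6.65% lower. The smallest adjusted p of a member was 0.237, for Cox8b, by limma.

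The differences were small. Apart from Cox8b, the 74 other tested members had fold changes between 0.839 and 1.17, or -0.25 to 0.23 on the log2 scale on which every difference here is given, treated minus control. The median standard error was 0.075 and the median 95% interval reached 0.18 to either side. For 72 of 75 members the whole 95% interval lay within 1.5-fold in both directions, the others being Cox8b, Cox4i2 and Cox7c, and for 31 it lay within 1.2-fold. Each interval is for its gene taken alone. With quantile normalization in place of the 75th percentile the counts were 72 and 46, and with median centring 72 and 3.

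**Figure D1:**
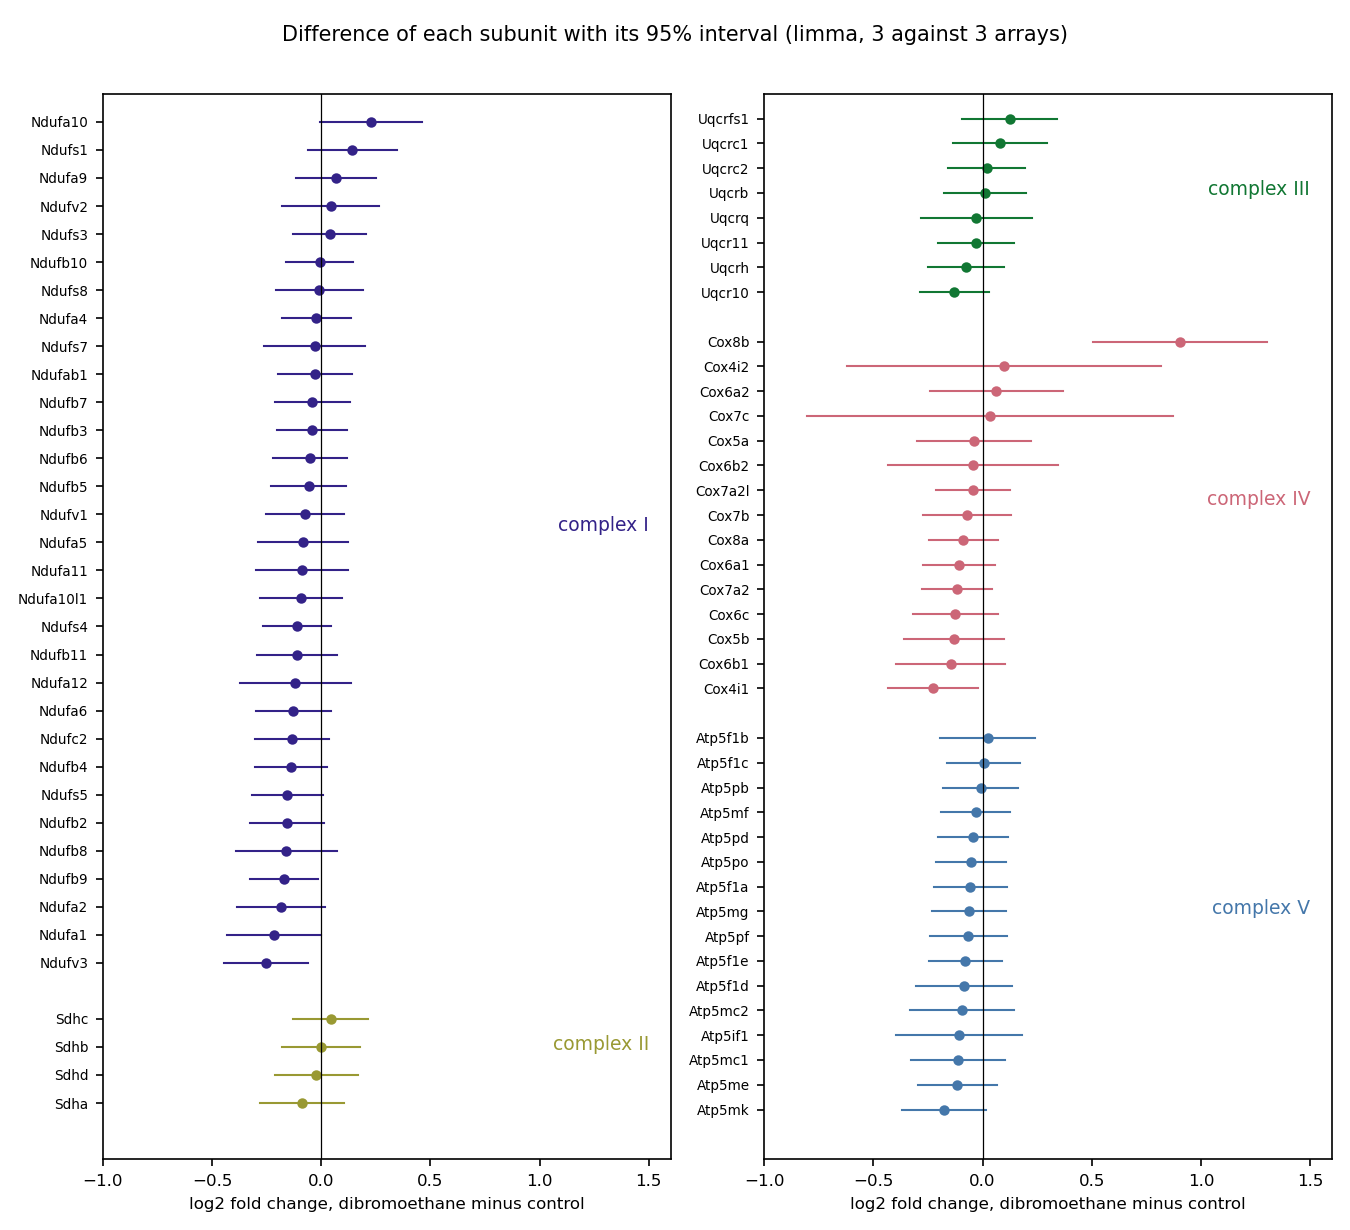
Log2 fold change (dibromoethane minus control, x axis) of 74 of the 75 tested members, ordered by complex, as points with 95% intervals from limma, 3 against 3 arrays. Only Cox8b lies beyond 0.5, and the intervals of Cox7c and Cox4i2 are the widest.

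Under the 75th percentile scaling, 58 of the 75 members (77.3%) were lower and 17 higher in treated cortex, beside 53.5% lower and 46.5% higher of all features. Their median was -0.058, a fold of 0.961, against -0.015 over all features. This split turned with the scaling. Under quantile normalization 27 members (36.0%) were lower and 48 higher, with a median of 0.018, beside 51.7% lower of all features. Under median centring 62 (82.7%) were lower, with a median of -0.093, beside 61.6% of all features and a median of -0.050. Quantile normalization moved the median of all features by 0.0079 and that of the members by 0.076, so a direction for the subunits as a group is not given.

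Members were bright probes, with a middle range of levels from 5.42 to 7.14 (log2 of the processed signal over the array's 75th percentile). Among 999 tested features that were not members and lay in this range, a set chosen after seeing the data, 71.3% were lower with a median of -0.095. Under quantile normalization 53% of them were lower, with a median of -0.012. The lower split of the subunits was thus shared by other features of like signal, and what sets it was not tested.

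**Figure D2:**
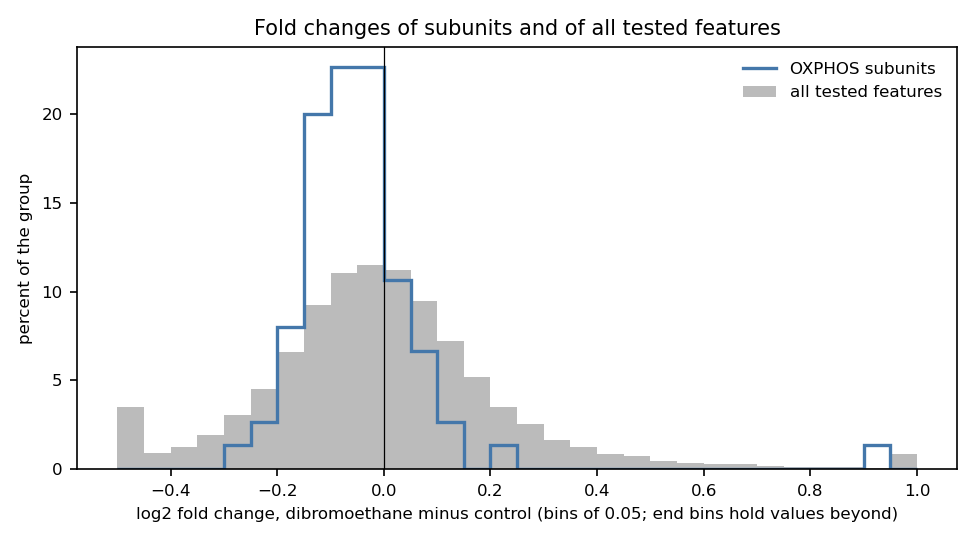
Share (percent) of the 75 tested members (outline) and of all 28954 tested features (grey bars) in each bin of log2 fold change, dibromoethane minus control. The members are gathered near 0, mostly just below it under this scaling, while all features spread farther to both sides.

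Between arrays the members moved together by little. The median deviation of the 75 members from their control means was 0.033, 0.013 and -0.042 in control replicates 1 to 3 and -0.044, -0.043 and -0.088 in dibromoethane replicates 1 to 3. The treated arrays lay below all controls, but control replicate 3 was almost level with dibromoethane replicates 1 and 2. Under the 75th percentile scaling complex IV stood farther apart, at 0.021, 0.030 and -0.0061 in controls and -0.076, -0.079 and -0.12 in treated rats. Under quantile normalization the members' deviations were 0.018, -0.0012 and -0.010 in controls and 0.069, 0.016 and -0.0005 in treated rats, so that the groups overlapped and the order was turned.

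**Figure D3:**
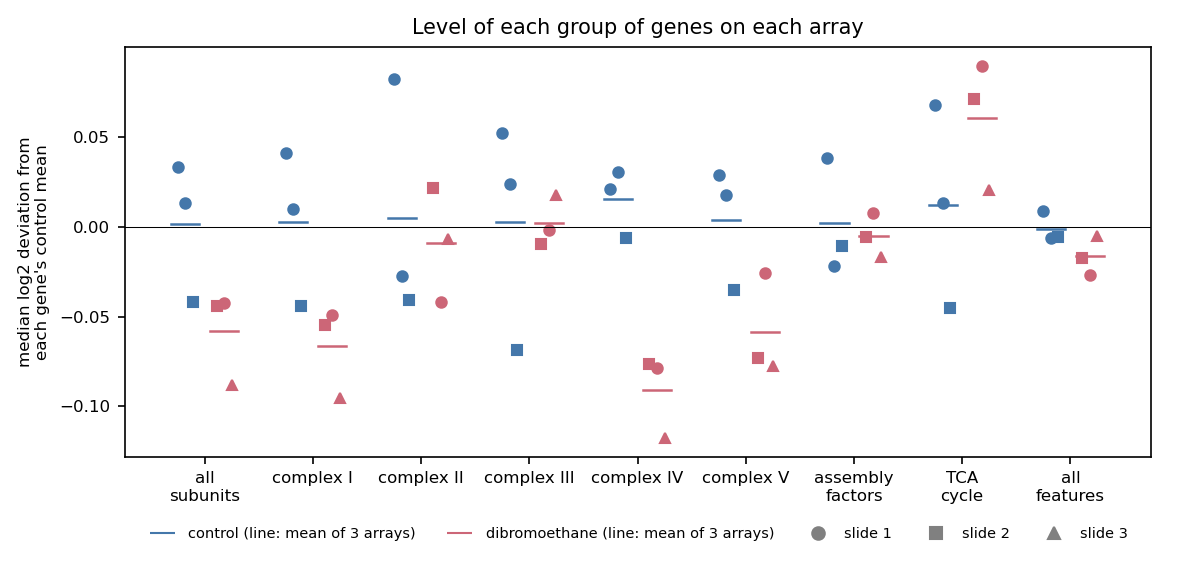
Median log2 deviation from each gene's control mean (y axis) for each group of genes on each of the 6 arrays; colours are the treatment groups, marker shapes the slides and lines the means of 3 arrays. Under the 75th percentile scaling drawn here the treated arrays lie below the controls for complexes I and IV and overlap them for complexes II, III and V.

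Groups that do not overlap were counted without a test. For 18 of the 75 members (24.0%) all 3 treated arrays lay on 1 side of all 3 controls, beside 19.5% of all features. The 16 lower ones (beside 12.1% of all features) were 9 of complex I, 1 of complex III, 4 of complex IV and 2 of complex V. The 2 higher ones, Ndufa10 and Cox8b, stand beside 7.35% of all features.

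Complex I, the entry point for electrons from NADH, had 32 tested members with a median of -0.079, of which 26 were lower and 6 higher. Without control replicate 1 the median was -0.046, with 22 lower and 10 higher, and with the slide as a fixed block it was also -0.046. Its catalytic core and its accessory subunits were split differently. Of the 7 core subunits, which carry electrons from NADH to ubiquinone, 4 were higher and 3 lower with a median of 0.038. Of the 25 others, 23 were lower and 2 higher, with a median of -0.11. Under quantile normalization all 7 core subunits were higher, with a median of 0.12, and 15 of 25 others were lower, with a median of -0.026. The difference between these subgroups was not tested.

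Ndufs1, the largest core subunit and holder of several iron-sulfur clusters, had levels of 5.36, 5.22 and 5.23 in controls and 5.46, 5.31 and 5.47 in treated rats. Control replicate 1 lay within the treated range, and the difference was 0.14 (SE 0.083, limma adjusted p = 0.551). Ndufs3, a part of the matrix arm, differed by 0.038 (SE 0.069). Ndufs7, the holder of the last cluster before ubiquinone, differed by -0.030 (SE 0.094), and Ndufs8, a ferredoxin-like subunit with a pair of clusters, by -0.0082 (SE 0.082). Ndufv1, which binds FMN and takes the electrons from NADH, differed by -0.075 (SE 0.073), and Ndufv2, its partner, by 0.043 (SE 0.091). On the brightest probe of each gene, these 6 core subunits thus had no difference beyond about 2 standard errors. A second, dimmer Ndufs1 probe had levels of 3.02, 2.78 and 2.79 in controls and 3.09, 3.09 and 3.15 in treated rats. Its groups did not overlap, at a difference of 0.25 (SE 0.091, limma adjusted p = 0.410 with each probe by itself).

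Ndufv3, an accessory subunit of the flavoprotein part, had levels of 6.83, 6.98 and 6.83 in controls and 6.56, 6.68 and 6.64 in treated rats. Every treated array lay below every control. The difference was -0.25 (SE 0.079), a fold of 0.839, with a limma adjusted p of 0.372. Of its other probes, 1 differed by -0.19, 1 by -0.0001 and 1 by 0.077, so the probes did not show 1 direction. Within slide 1 its difference was -0.23 and within slide 2 it was -0.27.

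Ndufb9, an accessory subunit of the membrane arm, had levels of 7.05, 7.07 and 7.04 in controls and 6.90, 6.90 and 6.84 in treated rats. The controls had an SD of 0.012 (n = 3) and lay above all treated arrays. Its difference was -0.17 (SE 0.064, limma adjusted p = 0.421). Other accessory subunits whose groups did not overlap were Ndufa1, Ndufa6, Ndufb2, Ndufb4, Ndufc2, Ndufs4 and Ndufs5, with differences from -0.22 for Ndufa1 to -0.11 for Ndufs4. The other probe of Ndufs4 went the opposite way, at -1.81 to -1.21 in controls and -1.19 to -1.08 in treated rats, a difference of 0.39 (SE 0.15, limma adjusted p = 0.436 with each probe by itself). Under quantile normalization 10 of the 25 accessory subunits were higher.

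Ndufa10, an accessory subunit of the membrane arm of the nucleoside kinase family, was the member of complex I with the largest positive value. Its levels were 4.30, 4.04 and 4.04 in controls and 4.41, 4.34 and 4.32 in treated rats. The groups did not overlap, with control replicate 1 close below the treated arrays. The difference was 0.23 (SE 0.096, limma adjusted p = 0.456). Ndufa10l1, its near copy, had levels of 6.25, 6.18 and 6.10 in controls and 6.15, 6.02 and 6.08 in treated rats and differed by -0.093 (SE 0.076). A probe may read both copies, so that the values of this pair are uncertain. The other member of the accessory group that was higher was Ndufa9, at 0.068 (SE 0.075). Ndufa4, named for complex I and known as a subunit of complex IV, differed by -0.023 (SE 0.065).

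Complex II, the succinate dehydrogenase that also serves the citric acid cycle, had 1 of 4 members higher and 3 lower, with a median of -0.012 that ranged from -0.040 (without control replicate 3) to 0.029 (without control replicate 1) when single arrays were left out. Sdha, the flavoprotein that oxidises succinate, had levels of 7.34, 7.17 and 7.21 in controls and 7.17, 7.09 and 7.19 in treated rats, and differed by -0.089 (SE 0.079). Sdhb, the iron-sulfur subunit, had levels of 5.74, 5.61 and 5.60 in controls and 5.66, 5.60 and 5.68 in treated rats, and differed by -0.0018 (SE 0.073). The membrane anchors Sdhc and Sdhd differed by 0.044 (SE 0.070) and -0.023 (SE 0.078). The groups overlapped for all 4 genes, and the 95% intervals of the 4 lay between -0.28 and 0.22.

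Complex III, which passes electrons from ubiquinol to cytochrome c, had 4 members higher and 4 lower, with a median of -0.0081. Leaving out single arrays moved that median between -0.027 (without control replicate 3) and 0.015 (without control replicate 1). Uqcrfs1, the Rieske iron-sulfur protein, had levels of 6.18, 6.08 and 5.92 in controls and 6.19, 6.14 and 6.22 in treated rats. The low control was replicate 3, and the difference was 0.12 (SE 0.089, limma adjusted p = 0.621). The core proteins Uqcrc1 and Uqcrc2 differed by 0.081 (SE 0.088) and 0.019 (SE 0.072). Uqcr10, a small subunit, had levels of 8.28, 8.31 and 8.24 in controls and 8.11, 8.17 and 8.15 in treated rats. It was the member of complex III whose groups did not overlap, at -0.13 (SE 0.065, limma adjusted p = 0.503). Uqcrh, the hinge protein, differed by -0.077 (SE 0.071).

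Complex IV, which reduces oxygen to water, had 4 of 15 tested members higher and 11 lower, with a median of -0.073. Under quantile normalization 9 were higher and 6 lower, with a median of 0.015. Cox4i1, the widely expressed form of subunit IV to which ATP binds as an inhibitor, had levels of 8.06, 8.04 and 7.88 in controls and 7.69, 7.84 and 7.78 in treated rats. The treated arrays lay below the controls, with control replicate 3 close above dibromoethane replicate 2. The difference was -0.23 (SE 0.084), a fold of 0.855, with a limma adjusted p of 0.415. Its other probe differed by -0.21, and within slides 1 and 2 the difference was -0.21 and -0.20.

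The other widely expressed subunits of complex IV had values of the same size or smaller. Cox5a, which binds the matrix side, differed by -0.040 (SE 0.11), and Cox5b, the zinc-binding subunit, by -0.13 (SE 0.094). Cox6a1, Cox7a2 and Cox8a, the forms of subunits VIa, VIIa and VIII found outside striated muscle, differed by -0.11 (SE 0.067), -0.12 (SE 0.066) and -0.089 (SE 0.065). For each of these 3 genes the treated arrays lay below the controls, with limma adjusted p of 0.574, 0.537 and 0.628. Cox7a2l, a related protein that joins complexes III and IV, differed by -0.046 (SE 0.069).

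Cox8b stood apart from the other subunits. It encodes the form of subunit VIII that is typical of heart, skeletal muscle and brown fat. Its levels were -1.85, -1.42 and -1.63 in controls and -0.48, -0.74 and -0.96 in treated rats. Every treated array was above every control, and the probe was well above background on all 6 arrays. The difference was 0.90 (SE 0.16; 95% interval 0.51 to 1.30), a fold of 1.87, with an unadjusted p of 0.00144 and an adjusted p of 0.237 by limma, so it did not pass. By unadjusted p it held rank 171 of 28954 features.

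A second Cox8b probe gave the same order. Its levels were -2.01, -1.71 and -1.97 in controls and -0.99, -1.08 and -1.39 in treated rats, a difference of 0.74 (SE 0.14). Within slide 1 the first probe differed by 0.89 and within slide 2 by 1.15. Over the alternative settings that could be tested its difference ranged from 0.78 to 1.02, and its limma adjusted p from 0.148 to 0.750. Cox8a, the widely expressed form of the same subunit, had levels of 8.22, 8.17 and 8.15 in controls and 8.11, 8.11 and 8.07 in treated rats.

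Markers of tissues in which Cox8b is typical were read on the same arrays. Of 6 striated muscle markers (Acta1, Ckm, Myh4, Myh2, Actn3 and Tnnt3), 0 were well above background on all arrays, and their summed level was 0.156 to 0.256 in controls and 0.152 to 0.497 in treated rats. Of 4 fat markers on the array, 3 were well above background on all arrays, with a summed level of 1.74 to 2.07 in controls and 1.56 to 2.05 in treated rats. Cidea, a lipid droplet protein of brown fat, had levels of -1.16, -1.03 and -0.78 in controls and -0.33, -0.67 and -0.83 in treated rats, a difference of 0.38 (limma adjusted p = 0.458). Adipoq, the adipocyte hormone and the brightest of these fat markers, differed by -0.31, and Cidec by -0.0315. Ucp1, the uncoupling protein of brown fat, was well above background on 0 of 3 control arrays and on 2 of 3 treated arrays. Its levels were -5.39, -4.99 and -5.31 in controls and -4.26, -4.57 and -5.02 in treated rats. The part of these tissues in the Cox8b result was not tested.

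**Figure D4:**
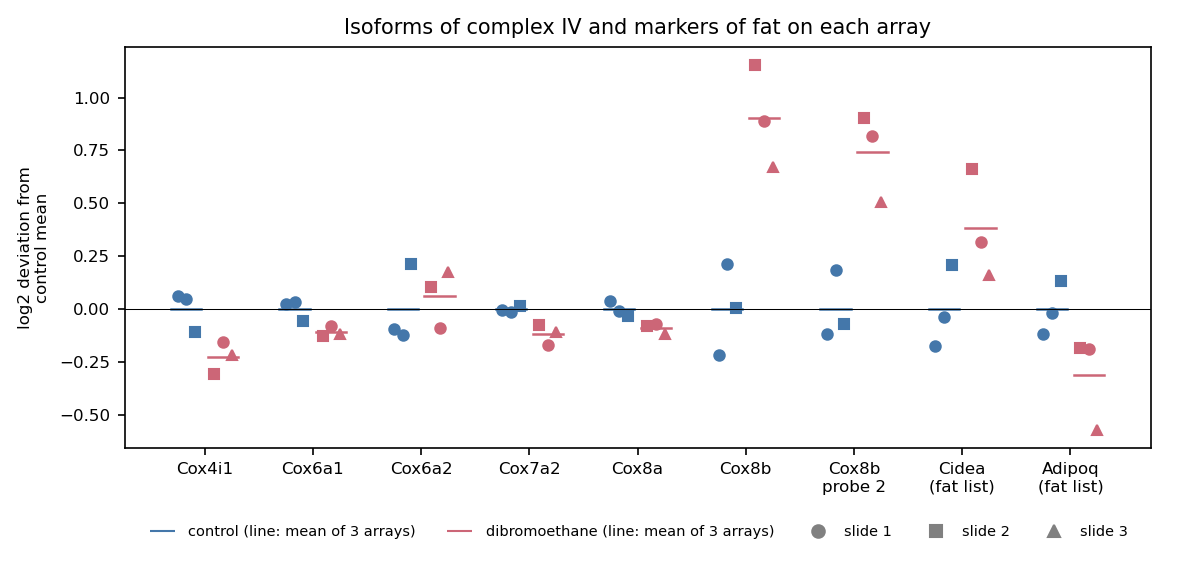
Log2 deviation of each array from the gene's control mean (y axis) for probes of complex IV isoforms, a second Cox8b probe and the fat markers Cidea and Adipoq; colours are the treatment groups, marker shapes the slides and lines the means of 3 arrays. The treated arrays of Cox8b lie above all controls on both probes, while those of Cox8a lie just below the controls. Those of Cidea and Adipoq lie on opposite sides of 0. The fat markers Ucp1 and Cidec are not drawn.

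The other tissue forms were read with wider disagreement between probes or slides. Cox6a2, the striated muscle form of subunit VIa, had levels of -1.36, -1.38 and -1.05 in controls and -1.16, -1.35 and -1.09 in treated rats, a difference of 0.063 (SE 0.12). A second, dimmer Cox6a2 probe, well above background on all 6 arrays, had levels of -4.05, -4.11 and -3.95 in controls and -3.53, -3.65 and -3.92 in treated rats. All 3 treated arrays lay above the controls on it, with a difference of 0.33 (SE 0.12, limma adjusted p = 0.403 with each probe by itself), while the remaining probe differed by -0.042 (SE 0.25). The difference between these genes and Cox8b was not tested. Cox4i2, the form of subunit IV known from lung, differed by 0.099 (SE 0.29), and Cox6b2, the testis form of subunit VIb, by -0.043 (SE 0.16). This Cox6b2 probe lay at 2.79 to 3.33, but a second probe lay at -3.65 to -3.22 and differed by 0.082 (SE 0.13). What sets the gap between these Cox6b2 probes was not examined. Cox6b1, the widely expressed form, differed by -0.15 (SE 0.10).

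Several probes were ordered by slide, in complex IV and in other complexes. On slide 1 were dibromoethane replicate 2 and the controls 1 and 2, on slide 2 dibromoethane replicate 1 with control 3, and on slide 3 dibromoethane replicate 3 by itself. Cox7c, a small subunit, had levels of 2.96, 2.76 and 3.54 in controls and 3.43, 2.44 and 3.50 in treated rats. Its 3 arrays of slide 1 lay at 2.44 to 2.96 and the other arrays at 3.43 to 3.54. Cox4i2 lay at 1.83 to 2.13 on slide 1 and at 2.61 to 2.73 elsewhere, and Cox6b2 at 2.79 to 3.01 and at 3.13 to 3.33.

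With the slide as a fixed block these 3 genes took other values. In that fit dibromoethane replicate 3, alone on slide 3, adds nothing to the treatment difference. The block values and their SE thus rest on slides 1 and 2 and on fewer arrays than the main fit. Cox7c differed by -0.29 (SE 0.12) in place of 0.035 (SE 0.34), Cox4i2 by -0.19 (SE 0.082) and Cox6b2 by -0.20 (SE 0.068), with limma adjusted p of 0.441, 0.446 and 0.405. Within slide 1 the differences were -0.42, -0.25 and -0.20, and within slide 2 they were -0.11, -0.10 and -0.20. In the block fit 0 members passed. A dim second probe of Ndufc2 lay at 0.022, -0.18 and -0.37 on slide 1 and at 1.40, 1.27 and 1.56 elsewhere. Most members ran the other way, with a higher mean on slide 1, by 0.23 for Cox6b1. Ndufa12 lay at 6.79 to 6.82 on slide 1 and at 6.51 to 6.63 elsewhere, and Atp5mc2 at 7.37 to 7.38 and at 7.15 to 7.20. Slide 1 held more controls than treated arrays, so slide and treatment are partly mixed in the main difference. A probe high on slide 1 is moved toward lower in treated rats, and a probe low on it toward higher. The part of the slide in the split of the members was not tested. In the block fit 57 of 75 members (76%) were lower, beside 56.2% of all features, with a median of -0.050. The main fit had 58 of 75 lower, with a median of -0.058.

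**Figure D5:**
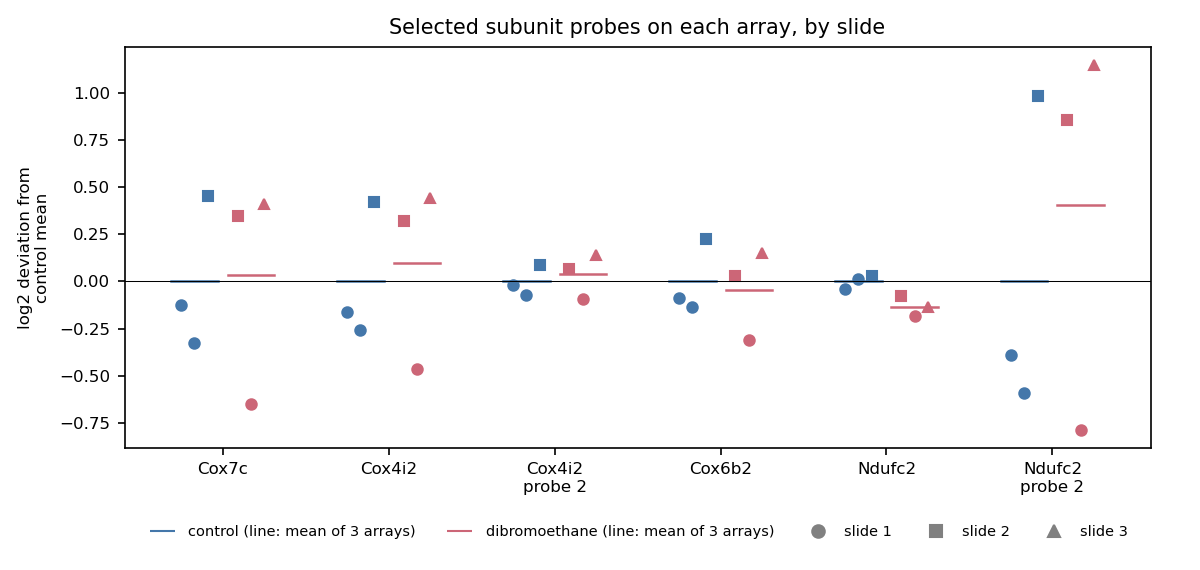
Log2 deviation of each array from the control mean (y axis) for selected subunit probes; marker shapes are the slides, colours the treatment groups and lines the means of 3 arrays. The probes of Cox7c, Cox4i2 and Cox6b2 and the dim Ndufc2 probe are low on all 3 arrays of slide 1, whichever the treatment.

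Complex V, the ATP synthase, had 14 of 16 members lower and 2 higher, with a median of -0.064. In its catalytic F1 head, Atp5f1a (alpha) had levels of 8.91, 9.02 and 8.91 in controls and 8.90, 8.90 and 8.86 in treated rats, a difference of -0.056 (SE 0.069) with groups that did not overlap. Atp5f1b (beta), where ATP is made, had levels of 6.28, 6.24 and 6.22 in controls and 6.21, 6.18 and 6.42 in treated rats. Dibromoethane replicate 3 alone lay above the controls, and the difference was 0.023 (SE 0.089). Atp5f1c (gamma), the rotating shaft, differed by 0.0049 (SE 0.069).

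All 10 members of the stalk and membrane part were lower, with a median of -0.064, while under quantile normalization 8 of the 10 were higher with a median of 0.024. Atp5mk, a small protein of the membrane part, had levels of 6.87, 6.99 and 6.90 in controls and 6.76, 6.82 and 6.66 in treated rats, and groups that did not overlap. Its difference was -0.18 (SE 0.079, limma adjusted p = 0.468). Atp5mc1 and Atp5mc2, genes for the same proton-carrying ring subunit, differed by -0.11 (SE 0.088) and -0.095 (SE 0.098). They encode 1 mature protein, and their probes could share sequence. Atp5me, of the membrane part, differed by -0.12 (SE 0.074). Atp5if1, which blocks the synthase when it runs backwards, differed by -0.11 (SE 0.12).

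Probes of the same gene did not always give 1 direction. Of 39 members with more than 1 tested probe, 12 had probes on both sides of 0, including Atp5f1a, Cox6a2, Cox6b1, Ndufs4, Ndufv1, Ndufv3 and Sdhb. Scanner files here hold no probe sequences, so which part of a transcript each reads was not examined.

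Genes that serve the complexes were read from lists. Of 39 assembly factors tested, 0 passed, with 19 higher and 20 lower (51.3%, beside 53.5% of all features) and a median of -0.010. An unadjusted p under 0.05 in limma was found for 7 (17.9%, beside 11.2% of all features), 2 higher and 5 lower. Uqcc3, a complex III assembly factor, had levels of 5.05, 5.13 and 4.97 in controls and 4.69, 4.85 and 4.75 in treated rats, a difference of -0.29 (SE 0.081, limma adjusted p = 0.354). Cox17, the copper chaperone of complex IV, had levels of 5.47, 5.42 and 5.40 in controls and 5.11, 5.29 and 5.09 in treated rats, a difference of -0.27 (SE 0.082, limma adjusted p = 0.364). The groups did not overlap for either gene, and neither passed.

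Of 16 genes of electron carriers, 0 passed in limma (beside 0.0311% of all features) and 0 had an unadjusted p under 0.05 (beside 11.2%). Lower were 10 of the 16 (62.5%), beside 53.5% of all features. The list held genes of ubiquinone synthesis or binding, cytochrome c, and the electron transfer flavoprotein (Etfa and Etfb) with its dehydrogenase (Etfdh). The smallest p were those of Coq3, a methyltransferase of ubiquinone synthesis, at -0.15 (SE 0.070), and Coq10a, a ubiquinone-binding protein, at -0.19 (SE 0.092). Cycs, cytochrome c itself, had levels of 7.21, 7.28 and 7.27 in controls and 7.02, 7.18 and 7.15 in treated rats, a difference of -0.13 (SE 0.076, limma adjusted p = 0.545).

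Of 18 regulators of mitochondrial biogenesis and maintenance genes of mitochondrial DNA, 0 passed in limma, beside 0.0311% of all features. An unadjusted p under 0.05 in limma was found for 0 of them, beside 11.2% of all features. Ppargc1a, the coactivator that raises mitochondrial gene expression, had levels of -0.44, -0.49 and -0.41 in controls and -0.54, -0.56 and -0.59 in treated rats. Its groups did not overlap, at a difference of -0.12 (SE 0.066, limma adjusted p = 0.549). Nrf1 and Tfam, transcription factors of nuclear and mitochondrial genes of respiration, differed by -0.014 (SE 0.12) and 0.0066 (SE 0.079), with no sign that held under all settings. Polg2, a subunit of the mitochondrial DNA polymerase, differed by 0.19 (SE 0.10), and Twnk, the helicase, by -0.13 (SE 0.070).

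The citric acid cycle supplies NADH and succinate, and its list here also held the pyruvate dehydrogenase genes Pdha1, Pdhb and Dlat. Of the 17 genes, 12 were higher (70.6%, beside 46.5% of all features) and 5 lower, with a median of 0.057. That median was 0.013 without control replicate 3, 0.084 without control replicate 1, 0.022 with median centring and 0.12 with quantile normalization. None passed in limma, and 2 had an unadjusted p under 0.05, both higher (11.8%, beside 4.52% of all features). Dlst, the transferase subunit of the 2-oxoglutarate dehydrogenase complex, had levels of 5.63, 5.56 and 5.53 in controls and 5.94, 5.84 and 5.79 in treated rats, a difference of 0.28 (SE 0.075, adjusted p = 0.349 by limma). Idh3a, the catalytic subunit of NAD-dependent isocitrate dehydrogenase, had levels of 1.16 to 1.31 in controls and 1.41 to 1.55 in treated rats, a difference of 0.26 (SE 0.078, adjusted p = 0.364 by limma). The mean of both Idh3a probes differed by 0.084. Of 8 carriers and channels for ADP, ATP and phosphate, 6 were higher (75%, beside 46.5% of all features) and 2 lower. An unadjusted p under 0.05 in limma was found for 0 of these 8, beside 11.2% of all features. Vdac3, an outer membrane channel, differed by -0.16 (SE 0.074) and Ckmt1, a mitochondrial creatine kinase, by 0.14 (SE 0.12).

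Markers of kidney segments and of other cells were read beside the subunits. Of the proximal tubule markers, Slc22a6, an organic anion transporter, and Aqp1, a water channel, each differed by -0.28 (limma adjusted p = 0.316 and 0.401). The others differed less, Lrp2 by -0.088, Slc34a1 by -0.0765, Slc5a2 by -0.0002 and Cubn by 0.12. Cubn, Lrp2 and Aqp1 had levels inside the range of 5.42 to 7.14, in which features were mostly lower under this scaling. Slc5a2, Slc34a1 and Slc22a6 lay above that range, where no share of lower features was computed. The part of signal level in the values of these markers was not tested. Summed markers of the thick ascending limb, another segment rich in mitochondria, were 318 to 343 in controls and 137 to 353 in treated rats. Umod, at a control mean of 8.25, was far brighter than the next marker, Slc12a1, at 4.35, so this sum mostly reads Umod. Umod differed by -0.57, Slc12a1 by -0.27 and Cldn16 by -0.72, but Kcnj1 by 0.085. Red blood cell markers summed to 540 to 606 in controls and 370 to 480 in treated rats, and macrophage markers to 16.2 to 18.3 and 11.9 to 13.9. Members of these lists did not all move with the sums: C1qa and C1qb differed by -0.54 and -0.48, but Cd68 by -0.034 and Csf1r by 0.047, and of the red blood cell markers Ahsp differed by 0.094. Liver transcripts summed to 0.725 to 6.25 in controls and 7.76 to 29.9 in treated rats. The part of cell composition in the values of the subunits was not tested.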

How the data were processed

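Scanner tables of spot intensity were deposited. Per the file headers, Agilent Feature Extraction 10.7.1.1 read them from array design 045522 and subtracted the background. The authors' processing notes name version 10.7. Deposited series values are intensities on a linear scale, each array divided by its 75th percentile, and served as an alternative. Of 62976 spots, 1439 control spots and 84 spike-in probes were left out. Probes were named by accession through a RefSeq table of GRCr8 (28206 of 61453 probes matched). Outlier spots, 1 to 11 per array, were set to missing.

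Each array's 75th percentile was subtracted from the log2 processed signal. A gene was represented by its brightest probe over 6 arrays. A feature entered the test if every array of either group had it well above background. Tests used limma 3.58.1 in R 4.3.3 (lmFit, eBayes; residual degrees of freedom 4, prior 2.04), two-sided, with a threshold of 0.05 after Benjamini-Hochberg adjustment over all features. The fit was run on simulated data with independent noise, no slide effect and changes larger than that of any member. Its behaviour for changes as small as those here was not checked. Named genes were, per complex, the 2 with the smallest p in each direction, and subunits and isoforms fixed by role, and in other lists the 2 with the smallest p, plus Ppargc1a, Nrf1, Tfam and Cycs. Cidea, Adipoq, Ucp1, Slc22a6, Aqp1 and other members named for groups that do not overlap or for slide order were chosen after their values were seen. Members and lists were chosen with earlier results of these data known. Each array is 1 animal, per the labels. Normexp used median spot signals with an offset of 50. The values of 1 tested member are not reported here; it stays in the counts and medians.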

Additional observations from a re-analysis of the deposited data

How the results depend on the processing

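No subunit passed under any setting. Of all features 9 passed; the counts were 5 with median centring, 5 with normexp, 2 without a filter on dim probes (48892 features), 0 with slide as a fixed block (3509 at an unadjusted p under 0.05), 2 with scan day as a block, 17 with a trended robust variance, and 1 to 10 leaving out single arrays (1 without control replicate 2, dibromoethane replicate 1 or dibromoethane replicate 2, 4 without control replicate 1). Same-numbered arrays of the groups deviated together at r = -0.19, 0.26 and 0.161, so the numbers are not taken to pair animals. With the replicate block limma called 0 members and 0 features, while 3464 features had an unadjusted p under 0.05.

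Medians depended on the scaling. Quantile normalization gave 0.018 for all members, 0.0072, 0.066, 0.080, 0.015 and 0.024 for complexes I to V, and 0.030, 0.12 and 0.11 for assembly, citric acid cycle and transport genes. Median centring gave -0.093 for all members, -0.11, -0.11 and -0.099 for complexes I, IV and V, and -0.045 and -0.049 for assembly and biogenesis genes. Complex IV was -0.047 with normexp, -0.046 with each probe by itself, -0.097 with array weights and -0.10 to -0.069 leaving out single arrays. Assembly genes were 0.025 with normexp, 0.016 with slide as a fixed block and -0.025 to 0.043 leaving out arrays. Biogenesis genes were 0.013 with slide as a random block, -0.062 with array weights, -0.060 within slide 1 and -0.081 to 0.0077 leaving out arrays, and transport genes -0.045 to 0.038. Within slide 2 (1 array a group) complexes I, II, III and V were -0.020, 0.057, 0.054 and -0.026, electron carriers 0.085 and citric acid cycle genes 0.13. All members ranged from -0.071 to -0.049 leaving out arrays.

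Named genes whose sign turned, all uncalled: with quantile normalization Sdha 0.018, Sdhd 0.055, Uqcrh 0.0012, Atp5me 0.014, Ndufs7 0.048, Ndufs8 0.045, Ndufv1 0.0099, Sdhb 0.076, Cox5a 0.041, Atp5f1a 0.040, Cox6a1 0.015, Cox7a2l 0.027, Cox8a 0.017, Ndufa4 0.080 and Atp5mc2 0.0094; with median centring Atp5f1b -0.012, Atp5f1c -0.030, Uqcrc2 -0.016 and Tfam -0.029; with normexp Sdhd 0.037 and Ndufv1 0.0036; with the mean of probes Sdhb 0.0047 and Cox6b2 0.020; with slide as a fixed block Sdhd 0.026, Cox6a2 -0.037, Atp5f1b -0.051, Ndufs7 0.057, Cox5a 0.0030, Cox4i2 -0.19, Nrf1 0.12 and Tfam -0.019; with slide as a random block Ndufs7 0.0001, Cox4i2 -0.013, Nrf1 0.032 and Tfam -0.0039; with array weights Atp5f1c -0.0024, Ndufv2 -0.0038 and Cox6b2 0.049. Leaving out single arrays turned Sdhd (-0.054 to 0.019), Ndufs7 (-0.088 to 0.039), Ndufs8 (-0.044 to 0.056), Sdhb (-0.026 to 0.041), Cox5a (-0.13 to 0.016), Atp5f1c (-0.013 to 0.033), Cox4i2 (-0.072 to 0.38), Nrf1 (-0.11 to 0.11), Tfam (-0.038 to 0.063), Ndufv2 (-0.019 to 0.087), Uqcrc2 (-0.017 to 0.044), Cox6b2 (-0.14 to 0.092) and Atp5f1b (-0.053 to 0.067). The cause was not tested. Dim probes lie nearest to background, and 3 animals per group leave changes inside the printed intervals undetected.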
